A study of Mus musculus with 12 samples.

Results

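The piRNA biogenesis factors described here are 9 genes whose products make or finish PIWI-interacting RNAs (piRNAs), taken by symbol through GENCODE release M21 from the 35666 genes of the deposited table: Mov10l1, Pld6, Asz1, Gtsf1, Exd1, Fkbp6, Henmt1, Pnldc1 and Ddx4. All 9 were listed, and all 9 had a mean of at least 10 normalized counts and entered the test. RNA came from testicular germ cells (gonocytes) of Mvh-Venus transgenic mice at postnatal day 0 (P0), with 3 libraries from Morc1 (+/-) mice (het) and 3 from Morc1 (-/-) mice (KO). All libraries carried the reporter, which is named for Mvh, another name of Ddx4, and the controls had already lost 1 Morc1 allele. The labels do not say whether the libraries of a group came from separate animals, so p-values measure the spread between these libraries, which may be technical. Samples from postnatal day 3 are also labelled and were not analysed here.

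piRNAs are small RNAs of the germ line that guide PIWI proteins to transposon transcripts and, in fetal male germ cells, to transposon DNA that becomes methylated. Their long precursors are bound by the helicase MOV10L1 and cut at the surface of mitochondria, where PLD6 and its scaffold ASZ1 reside. The intermediates are then loaded onto PIWI proteins, trimmed by PNLDC1 and methylated at their last nucleotide by HENMT1. In the granules called nuage, DDX4, FKBP6, EXD1 and GTSF1 act with PIWI proteins in slicing targets and in the amplification of piRNAs. MORC1, the protein lost in the knockout, is a germ cell ATPase needed for transposon silencing in the same cells.

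Levels were compared between genes as normalized counts per kb of merged exon length in the het libraries. Fkbp6 was the highest, at 23845 ± 4245 per kb (SD, n = 3), above 99.9% of the tested protein-coding genes. It was followed by Ddx4 at 8535 ± 2370 and Gtsf1 at 5306 ± 373 (SD, n = 3). Mov10l1 (2670 ± 537) and Asz1 (2301 ± 36.3) came next, and their ranges over het libraries overlapped. Pnldc1 (1568 ± 317), Pld6 (854 ± 275), Henmt1 (464 ± 25.4) and Exd1 (228 ± 26.1) were lower (SD, n = 3). No other neighbours in this order overlapped in the het libraries, and Exd1, the lowest, was still above 64.1% of the tested protein-coding genes. By merged exon length, Gtsf1 was above Mov10l1 in the 3 het libraries, and Mov10l1 was above Gtsf1 in the 3 KO libraries. With the longest transcript as the length, Gtsf1 moved ahead of Ddx4 and Asz1 ahead of Mov10l1. By that length Gtsf1 and Mov10l1 were further apart in het (means of 9006 and 2703 per kb). Mov10l1 was then not above Gtsf1 in every KO library.

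**Figure D1:**
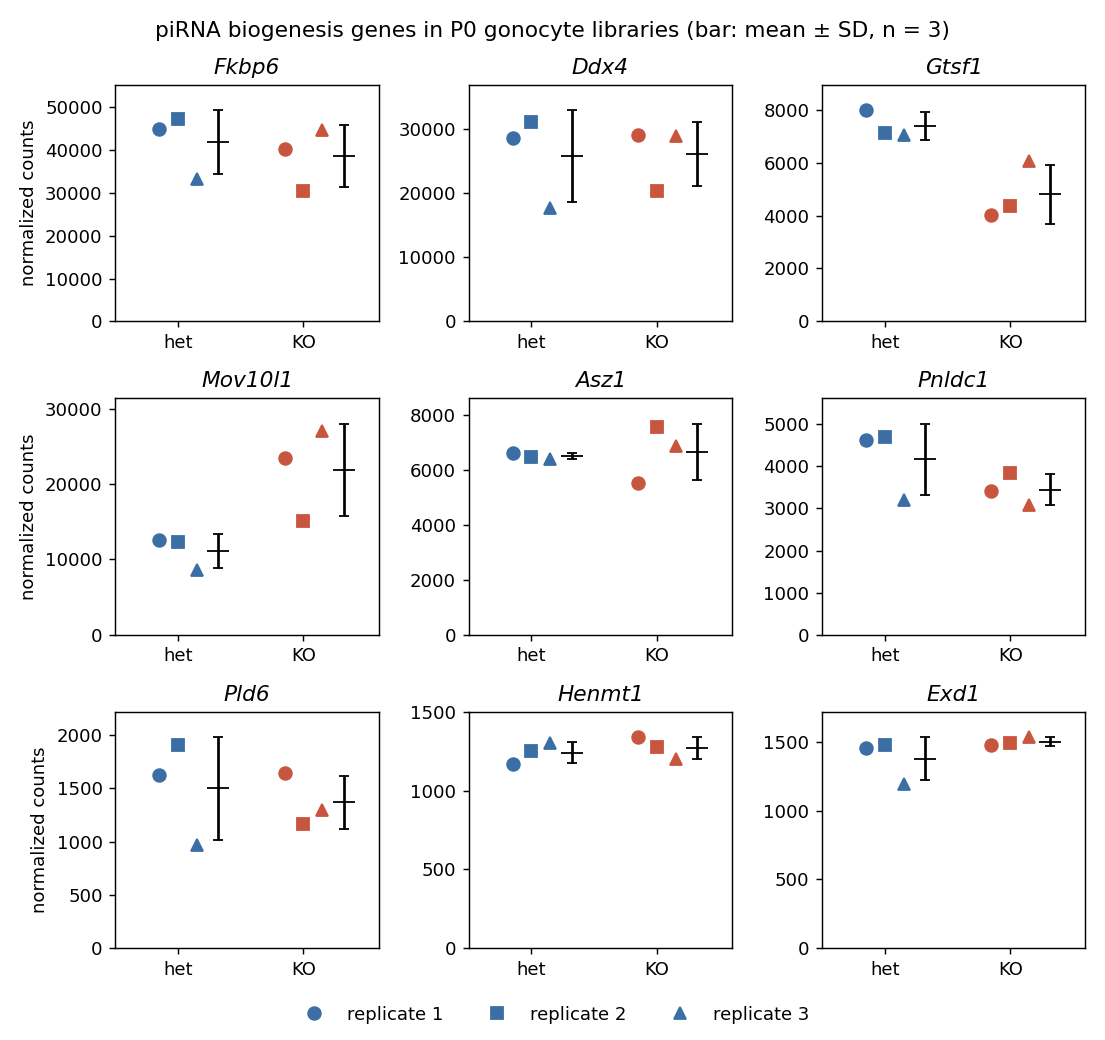
Normalized counts (vertical axes, each from 0) of the 9 piRNA biogenesis genes in the het (blue) and KO (red) libraries at P0, with symbols for replicates and black bars for the mean ± SD (n = 3). Only Mov10l1 (KO above) and Gtsf1 (KO below) had groups that did not overlap, as did 12.7% of all tested genes in either direction. Het replicate 3 held the lowest het value of 8 genes.

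The labels and the cells were checked first. Morc1 had 4126 to 7485 normalized counts in het and 1343 to 1794 in KO, 23.8% of the het mean. The gene table held 28363683 to 32816861 reads per library. The 10 germ cell markers summed to 97259 to 131880 normalized counts in het and 102976 to 129902 in KO. Dazl alone averaged 56637 in het, where the sum averaged 116057, so the sum says little of the less abundant markers. Of the 10, 1 had all KO values above all het values (7.17% of all tested genes). The 20 markers of other testis cells were detected, none at 0, and 15 of them had a negative log2 fold change. These were all 7 Sertoli and all 5 Leydig cell markers, 2 of 4 blood and macrophage markers and 1 of 2 endothelial markers. The 2 peritubular myoid markers had positive log2 fold changes. The 5 Leydig cell markers summed to 24921 in het replicate 3, against 509.6 to 1079 in the other libraries. The 7 Sertoli cell markers summed to 17536 to 37259 in het and 12581 to 18099 in KO, with a median log2 fold change of -0.69. Of these, 3 had all KO values under all het values (5.57% of all tested genes). The same 3 were lower in KO at an unadjusted limma p under 0.05 (2.44% of all tested genes), and 0 passed after adjustment. Fewer cells of a type and less RNA per cell cannot be told apart in bulk libraries.

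To ask whether loss of Morc1 was accompanied by a change of the piRNA machinery, the 9 genes were read from a limma fit over 26005 genes. At an adjusted p under 0.05, 0 of the 9 passed, against 0.473% of all tested genes (0.431% higher and 0.0423% lower in KO). At an unadjusted p under 0.05 there were 2, Mov10l1 and Gtsf1, one in each direction, where 6.86% of all tested genes had such a p (4.42% higher and 2.44% lower). DESeq2 on recovered reads called 1 of the 9, Mov10l1, higher in KO, where it called 1.79% of all genes (1.54% higher), and edgeR called 0. The median log2 fold change of the 9 was 0.02 beside -0.02 over all tested genes. The median absolute value was 0.12 (that of Fkbp6) beside 0.29 over all tested genes, many of which have far lower counts. Among protein-coding genes with a mean of at least 1000 normalized counts, 61.2% had a larger absolute value than Fkbp6. Among the 9, 5 had a positive and 4 a negative log2 fold change. The estimates ran from -0.64 for Gtsf1 to 0.95 for Mov10l1.

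Mov10l1 (ENSMUSG00000015365, plus strand of chromosome 15 from 88982909 to 89055152, GRCm38) encodes the RNA helicase that binds piRNA precursors and hands them to the processing machinery. Its normalized counts, here and below in the order of replicates 1 to 3, were 12593, 12337 and 8582 for het and 23526, 15170 and 27099 for KO. All KO values exceeded all het values, which 7.17% of all tested genes also showed. KO replicate 2 came nearest to the het libraries. The mean was 11171 ± 2246 in het and 21932 ± 6122 in KO (SD, n = 3), a ratio of 1.96. The limma log2 fold change was 0.95 (SE 0.26, 95% interval 0.38 to 1.52), with an unadjusted p of 0.00399 and an adjusted p of 0.252. By p it ranked 412 of 26005. Among the 6661 protein-coding genes with a mean of at least 1000 normalized counts, 34 had a larger log2 fold change. With DESeq2 on recovered reads the log2 fold change was 0.97 and the adjusted p 0.0397. Without het replicate 3, the library with the highest summed Leydig cell markers, it was 0.77 in limma (adjusted p 0.488). Leaving out KO replicate 3 lowered it about as much, to 0.78 (limma adjusted p 0.729). Leaving out any other single library gave 0.88 to 1.20.

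Gtsf1 (ENSMUSG00000022487, minus strand of chromosome 15 from 103402405 to 103430470) encodes a small zinc finger protein that binds PIWI proteins and helps them cut their targets. Normalized counts were 7975, 7098 and 7054 for het and 4008, 4342 and 6077 for KO. All KO values lay under all het values, as they did for 5.57% of all tested genes. The KO libraries spread more widely than the het libraries, with replicate 3 nearest to them. The mean was 7376 ± 519 in het and 4809 ± 1111 in KO (SD, n = 3), a ratio of 0.652. The limma log2 fold change was -0.64 (SE 0.21, 95% interval -1.11 to -0.16), with an unadjusted p of 0.0134 and an adjusted p of 0.467. Leaving out KO replicate 3 gave -0.82 (limma adjusted p 0.313) and leaving out KO replicate 1 gave -0.52 (limma adjusted p 0.591).

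The sequences before the start sites are shown because Mov10l1 and Gtsf1, on the same chromosome, had values apart in opposite directions, and because Fkbp6 was the most abundant member. They are from RefSeq (GRCm38.p6), whose promoter table held 8 of the 9 genes (not Pnldc1). Bases that lie after a RefSeq or GENCODE start are left out. Capitals mark the E-box CACGTG, which is bound by basic helix-loop-helix proteins such as MAX and its partners, and the CCAAT box (CCAAT, or ATTGG on the other strand), a site of NF-Y. The lines give chr15:88982744-88982908 (plus strand) for Mov10l1, chr15:103430471-103430677 (minus strand) for Gtsf1 and chr5:135350045-135350294 (minus strand) for Fkbp6.
Mov10l1: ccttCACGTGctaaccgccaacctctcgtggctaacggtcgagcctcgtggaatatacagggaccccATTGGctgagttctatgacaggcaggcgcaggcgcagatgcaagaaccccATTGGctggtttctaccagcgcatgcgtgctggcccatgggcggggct
Gtsf1: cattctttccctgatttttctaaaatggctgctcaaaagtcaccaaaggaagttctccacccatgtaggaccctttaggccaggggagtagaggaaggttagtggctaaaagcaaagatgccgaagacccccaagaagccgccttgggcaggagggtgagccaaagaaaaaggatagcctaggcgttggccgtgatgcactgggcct
Fkbp6: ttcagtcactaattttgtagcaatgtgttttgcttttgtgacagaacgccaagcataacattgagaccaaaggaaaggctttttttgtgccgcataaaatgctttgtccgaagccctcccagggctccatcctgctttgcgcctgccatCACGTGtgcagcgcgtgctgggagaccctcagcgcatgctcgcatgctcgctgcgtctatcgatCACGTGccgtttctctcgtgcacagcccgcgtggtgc
In the printed part Mov10l1 has 1 E-box and 2 CCAAT boxes, Fkbp6 has 2 E-boxes, and Gtsf1 has neither. Over the RefSeq windows of 300 bases (250 before to 50 after a start), CACGTG was found for 4 of the 8 genes (Mov10l1, Pld6, Fkbp6 and Ddx4), where 8.09% of all genes in the table have it. CCAAT on either strand was found for 4 of the 8 (Mov10l1, Pld6, Exd1 and Ddx4), where 41.1% of all genes have it. The MYB core AACGG on either strand was found for Mov10l1, Pld6, Fkbp6 and Ddx4, where 19.6% of all genes have it. The GC box GGGCGG on either strand was found for 6 of the 8, the exceptions being Gtsf1 and Fkbp6, where 38.2% of all genes have it. Only Ddx4 held the E2F site GCGGGAA on either strand, which 5.29% of all genes have. Pld6 and Fkbp6 have 2 windows each, so their chance to hold a motif is greater. All of these motifs but CCAAT contain CpG (C followed by G). The windows of the 8 genes held from 13 CpG (Gtsf1) to 38 (Ddx4), beside a median of 7 over all windows. The shares over all genes were not matched for CpG, so they cannot show whether a motif is particular to these genes. These matches describe letters only.

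The genes that form the leading end of piRNAs at mitochondria had overlapping groups. Pld6 (minus strand of chromosome 11 from 59783897 to 59787645) encodes the mitochondrial enzyme linked to cutting of precursors. It had 1625, 1910 and 967 normalized counts for het and 1642, 1168 and 1295 for KO. The KO values all lay between the lowest and the highest het value, and the limma log2 fold change was -0.09 (95% interval -0.73 to 0.55, adjusted p 0.976). Asz1 (minus strand of chromosome 6 from 18050964 to 18109061), the scaffold at the mitochondrial surface, had 6624, 6476 and 6427 for het and 5531, 7570 and 6888 for KO. The KO libraries lay on both sides of the closely grouped het libraries, and the log2 fold change was 0.02 (95% interval -0.41 to 0.45, limma adjusted p 0.993).

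The genes that finish the trailing end of piRNAs were also measured. Pnldc1 (minus strand of chromosome 17 from 12888729 to 12910230) encodes the exonuclease that trims piRNA intermediates. It had 4631, 4685 and 3199 normalized counts for het and 3415, 3833 and 3086 for KO. Het replicates 1 and 2 were above all KO libraries, and het replicate 3 lay among them. The limma log2 fold change was -0.26 (95% interval -0.75 to 0.23, adjusted p 0.896). Henmt1 (plus strand of chromosome 3 from 108939873 to 108960774) encodes the methyltransferase that protects the trimmed end. It had 1168, 1256 and 1302 for het and 1341, 1275 and 1200 for KO, the narrowest span of the 9 genes, with its highest library 1.15 times its lowest. Its log2 fold change was 0.03 (95% interval -0.42 to 0.49, limma adjusted p 0.990). Henmt1 overlaps Gm9857 and Pnldc1 overlaps AL589878.1, each on the opposite strand, and the sources used here do not give the strand setting of the counting. Both overlapping genes had fewer than 56 normalized counts in every library.

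The other members that act with PIWI proteins in nuage, Fkbp6, Ddx4 and Exd1, had overlapping groups. Fkbp6 (minus strand of chromosome 5 from 135291704 to 135350044), a cochaperone of PIWI loading and cycling, had 44845, 47236 and 33319 normalized counts for het and 40288, 30521 and 44617 for KO. The ranges overlapped, each reaching past the other at 1 end, with a limma log2 fold change of -0.12 (95% interval -0.60 to 0.36, adjusted p 0.954). Ddx4 (minus strand of chromosome 13 from 112598333 to 112652475), the DEAD-box helicase of germ cells, had 28528, 31038 and 17605 for het and 28977, 20304 and 28851 for KO. Het replicate 3 and KO replicate 2 were low for Ddx4 and the other 4 libraries were close together. The log2 fold change was 0.04 (95% interval -0.52 to 0.61, limma adjusted p 0.990). The cells were isolated from mice with a reporter named for this gene, so its level is not independent of how the cells were obtained. Exd1 (minus strand of chromosome 2 from 119516505 to 119547627), an RNA-binding partner in piRNA amplification, had 1458, 1479 and 1196 for het and 1476, 1491 and 1535 for KO. KO replicates 2 and 3 lay above all het values and KO replicate 1 just below het replicate 2, and the log2 fold change was 0.13 (95% interval -0.33 to 0.59, limma adjusted p 0.948).

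Libraries differed in ways shared by several members. Among the het libraries, replicate 3 had the lowest value of 8 of the 9 genes, the exception being Henmt1. Among the KO libraries, replicate 2 had the lowest value of 4 of them, Mov10l1, Pld6, Fkbp6 and Ddx4. The 9 genes summed to 109447, 113514 and 79651 normalized counts in het and to 110204, 85674 and 120649 in KO. Het replicate 3 was also the library with the highest summed Sertoli and Leydig cell markers, and the part of these cells in the members' values was not tested.

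Ratios within a library do not depend on its size factor. Per 100 normalized counts of Ddx4, Mov10l1 stood at 44.1, 39.7 and 48.7 for het and 81.2, 74.7 and 93.9 for KO. On this scale the gap between the genotypes was wide and each group was close together. The mean was 44.2 ± 4.50 in het and 83.3 ± 9.77 in KO (SD, n = 3), a ratio of 1.88 (exact two-sided permutation p = 0.1, the smallest that 3 against 3 allow). Per 100 counts of the other 8 members it averaged 12.4 ± 0.504 and 25.9 ± 3.88 (SD, n = 3; p = 0.1 by the same exact test). The same denominator gave Fkbp6 a lower ratio in KO without overlap (70.9 ± 1.29 and 57.2 ± 1.71, SD, n = 3; exact two-sided p = 0.1), Mov10l1 being part of it. Per 100 counts of Dazl, a germ cell RNA-binding gene, Mov10l1 averaged 19.6 ± 1.99 and 37.7 ± 13.0 (SD, n = 3; p = 0.1 by the exact test). Gtsf1 per 100 counts of Ddx4 was 28.0, 22.9 and 40.1 for het and 13.8, 21.4 and 21.1 for KO, with groups that did not overlap but came close. They averaged 30.3 ± 8.84 and 18.8 ± 4.27 (SD, n = 3; p = 0.1 by the same exact permutation test). Per 100 counts of Dazl the Gtsf1 groups overlapped, at 13.8, 11.1 and 14.6 in het and 5.52, 8.07 and 11.8 in KO (exact two-sided permutation p = 0.2). The other 6 ratios to Ddx4 (Pld6, Asz1, Exd1, Fkbp6, Henmt1 and Pnldc1) had overlapping groups. Their KO to het ratios ran from 0.836 for Pnldc1 to 1.07 for Exd1. Mov10l1 and Gtsf1 were also apart in normalized counts, and their ratios reuse those values. The share of all tested genes whose ratio to Ddx4 had groups apart was not computed. Over these 8 ratios to Ddx4, the smallest exact p of 0.1 does not pass after adjustment, and 26 such ratios were computed in all.

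**Figure D2:**
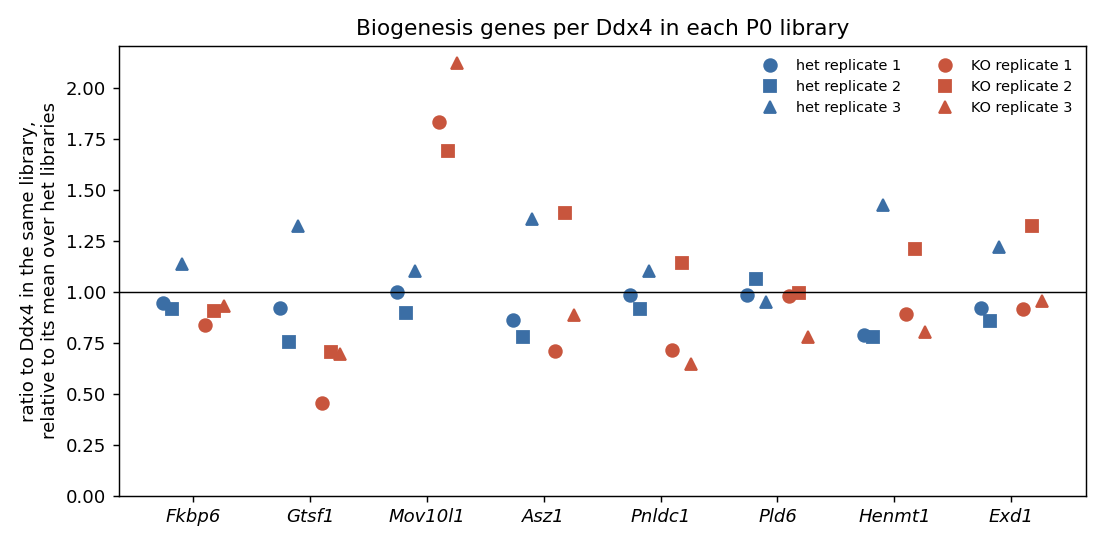
Ratio of each member to Ddx4 in the same library, divided by its mean over the het libraries (vertical axis, from 0; horizontal line at 1), for het (blue) and KO (red) libraries with symbols for replicates. The 3 KO libraries of Mov10l1 lie above all its het libraries, those of Gtsf1 below, and the other 6 genes overlap. The share of all tested genes with such groups apart was not computed.

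The other genes of the pathway were taken from a list of 33: PIWI proteins and cofactors, Tudor-domain genes and near relatives of the 9. At an adjusted p under 0.05, 0 of the 33 passed in either direction in limma, and 0 in edgeR and DESeq2. Over all tested genes the share was also small, 0.473% in limma and 1.79% in DESeq2. At an unadjusted p under 0.05 there were 2 (6.86% of all tested genes). Their median log2 fold change was 0.03, with 17 above and 16 below 0. Spocd1, a nuclear partner of the PIWI protein that directs DNA methylation, had 12403, 12184 and 12387 normalized counts for het and 9982, 4374 and 6255 for KO. Tdrd5 was the other of 2 genes whose KO values all lay under het (5.57% of all tested genes). For Spocd1 the limma log2 fold change was -0.93 (SE 0.28, p 0.00730, adjusted p 0.347). Tdrkh, a mitochondrial Tudor-domain gene that works with Pnldc1 in trimming, had 2462, 2729 and 2871 for het and 3667, 3555 and 4001 for KO. Its KO libraries were all above het (7.17% of all tested genes), with a limma log2 fold change of 0.48 (SE 0.19, p 0.0308, adjusted p 0.645). The next in each direction were Rnf17 at 0.31 (limma adjusted p 0.875) and Parn, a relative of Pnldc1, at -0.40 (limma adjusted p 0.831), both with overlapping groups. Mov10, the relative of Mov10l1 that is active outside the germ line, had 6647, 6526 and 5951 for het and 6465, 5374 and 3299 for KO. Its log2 fold change was -0.39 (limma adjusted p 0.859), opposite in sign to that of Mov10l1. The Gtsf1 relatives Gtsf1l and Gtsf2 had at most 94.1 normalized counts in any library.

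**Figure D3:**
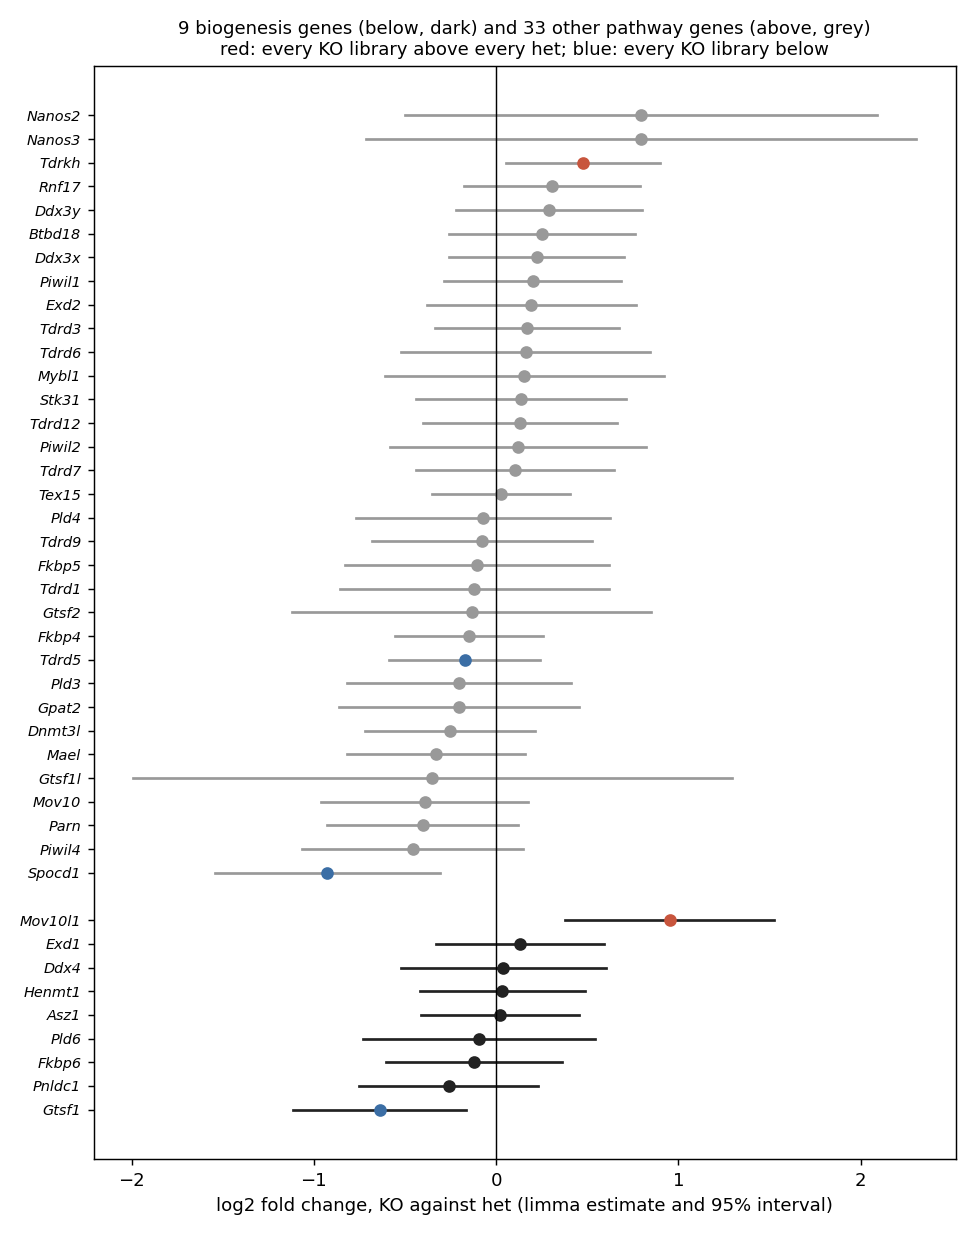
Limma log2 fold changes of KO against het (points, horizontal axis) with 95% intervals (lines) for the 9 biogenesis genes (lower block) and the 33 other pathway genes (upper block), red where every KO library lay above every het library and blue where every KO library lay below. Among the 9, the intervals of Mov10l1 (0.38 to 1.52) and Gtsf1 (-1.11 to -0.16) do not reach 0. Among the 33, those of Spocd1 (-1.54 to -0.31) and Tdrkh (0.05 to 0.90) do not either. The intervals are not adjusted for the number of genes, and 6.86% of all tested genes had an unadjusted limma p under 0.05. None of these genes passed after adjustment in limma.

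Transposable element (TE) copies of the same libraries were measured at the members' loci in a separate table, mostly outside exons. The TE table lists 196 copies in or within 10 kb of the 9 genes, 133 in introns, 1 overlapping an exon and 62 in the flanks. Of the 76 with a mean of at least 10, 0 passed an adjusted p under 0.05 in limma, against 16.3% of all 49781 tested copies (15.6% higher and 0.735% lower in KO). At an unadjusted p under 0.05 there were 2, both at Ddx4 and lower in KO, against 25.6% of all tested copies (21.7% higher and 3.89% lower). All KO values exceeded all het values for 1 of the 76 (22.8% of all tested copies) and lay under them for 11 (7.58%). The median log2 fold change of the 76 was -0.54 beside 0.03 over all tested copies, with 15 above and 61 below 0. TE values carry their own size factors. Scaled by the size factors of the gene table, the median of the 76 was -0.23 beside 0.34 over all tested copies, with 28 above and 48 below 0 and 0 passing in limma (18.5% of all tested copies). Without het replicate 3, 2 of 78 tested copies passed, both near Ddx4 and lower in KO, where the same fit called 18.8% of all tested copies (0.757% lower), with limma log2 fold changes of -1.65 (adjusted p 0.0274) and -2.48 (adjusted p 0.0449). With a window of 50 kb, 2 of 112 tested copies passed (1.79%), a smaller share than the 16.3% of all tested copies. One, 29970 bp upstream of Asz1 on chromosome 6 (18139031 to 18140989), had 10.5, 7.85 and 8.63 normalized counts in het and 29.6, 49.5 and 43.6 in KO (limma log2 fold change 2.04, adjusted p 0.0209). The other, 22518 bp upstream of Henmt1 on chromosome 3 (108917196 to 108917355), had 26.4, 21.3 and 32.6 in het and 11.4, 0 and 0.855 in KO (limma log2 fold change -3.26, adjusted p 0.0451).

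Within Mov10l1 the TE table lists 37 intronic copies, which overlap no annotated exon. Scaled by the size factors of the gene table, their sums were 878, 849 and 1240 for het and 1003, 1398 and 620.2 for KO. The groups overlapped fully, with means of 989 ± 218 and 1007 ± 389 (SD, n = 3). Het replicate 3 and KO replicate 2, the lowest of their groups for the gene, were the highest for the intronic copies. The same libraries were the highest of their groups for the intronic copies of Asz1, Gtsf1 and Pnldc1, which makes 4 of the 8 members with intronic copies. For Fkbp6 and Ddx4 het replicate 3 was instead the lowest het library. The most abundant intronic copy of Mov10l1 was one of 3618 bp on the strand of the gene (chromosome 15 from 89032751 to 89036368). This copy makes up a large part of the Mov10l1 sums. It had 476, 424 and 717 normalized counts for het and 460, 559 and 228 for KO, with a limma log2 fold change of -0.43 (SE 0.41, adjusted p 0.609). The copy within Mov10l1 with the lowest p, 176 bp on the opposite strand from 89008993 to 89009168, had 3.16, 5.61 and 0 in het and 36.2, 6.19 and 11.98 in KO (limma adjusted p 0.212). The copy nearest to the start of Mov10l1, 590 bp upstream and on its strand, had 198, 211 and 99.7 in het and 204, 95.2 and 133 in KO (limma adjusted p 0.821). For the other members with intronic copies, the summed intronic counts likewise overlapped between genotypes.

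**Figure D4:**
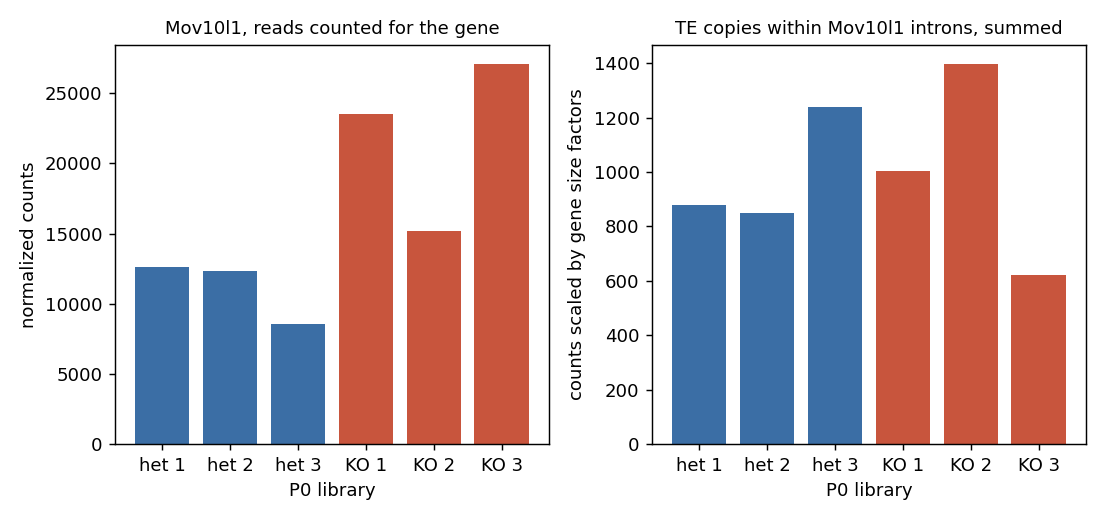
Mov10l1 in each P0 library (het blue, KO red): normalized counts of the gene (left) and the sum over TE copies within its introns, scaled by the gene size factors (right), both axes from 0. The gene is between 15170 and 27099 in KO and at most 12593 in het, whereas the intronic sums of the genotypes overlap (849 to 1240 in het, 620 to 1398 in KO).

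At the other members, the copy with the lowest p was intronic for Asz1, Gtsf1, Fkbp6, Henmt1, Pnldc1 and Ddx4, exonic for Exd1 and upstream for Pld6. The lowest of these p-values belonged to a copy of 318 bp in a Ddx4 intron (chromosome 13 from 112623677 to 112623994), with 15.8, 40.4 and 14.4 normalized counts for het and 10.5, 2.32 and 5.13 for KO. Its KO libraries were all below het, with a limma log2 fold change of -1.84 (SE 0.77, adjusted p 0.147). The limma adjusted p-values of the lowest-p copies at the other members ran from 0.212 at Mov10l1 to 0.622 at Gtsf1.

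Genes with a part within 100 kb of a member were read from the same fit. Of 72 listed, 63 were tested and 0 passed an adjusted p under 0.05 in limma, edgeR or DESeq2. Over all tested genes 0.473% passed in limma and 1.79% in DESeq2. At an unadjusted p under 0.05 in limma there was 1 (6.86% of all tested genes). Their median log2 fold change was -0.05. The 4 genes nearest to Mov10l1 had overlapping groups. The small nuclear RNA gene Gm23737, inside Mov10l1 on its strand, had a limma log2 fold change of -0.46 (adjusted p 0.949), and the pseudogene Gm8702, 2.50 kb upstream, -0.23 (adjusted p 0.947). The protein-coding gene Mlc1, 3.90 kb upstream on the opposite strand, had a limma log2 fold change of -0.31 (adjusted p 0.911), and Panx2, 4.58 kb beyond its end, 0.40 (adjusted p 0.908). The 1 gene was Il31ra, next to Ddx4, at -0.95 (SE 0.33, limma adjusted p 0.521). The others with the lowest p were Acat2, near Pnldc1, at -0.59 (limma adjusted p 0.770), and Stxbp3 and Prpf38b, near Henmt1, at 0.44 and 0.48 (limma adjusted p 0.813 each).

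The genes with values most like those of Mov10l1 over the 6 libraries were found by Pearson's r of log2 values among 14060 other protein-coding genes with a mean of at least 100. They were Abt1 (r = 0.999), Lepr (0.990), Malrd1 (0.989), Zcchc8 (0.987) and Rpusd2 (0.986). Malrd1 had 88.7, 69.5 and 27.3 normalized counts for het and 396, 187 and 561 for KO, a larger difference in ratio than that of Mov10l1. Zcchc8 ran only from 2170 to 3190 over all libraries. For Gtsf1 they were Dnajc24 (r = 0.987), Dlgap4 (0.978), Prss36 (0.973), Tctn3 (0.968) and Prkaa1 (0.963). These are the highest values of r among 14060 genes over only 6 libraries, and r says nothing of the size of a difference.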

How the data were processed

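RNA-seq values of 6 P0 libraries were used, as deposited in 1 gene table and 1 TE table whose columns name genotype and replicate. Both hold a signal made by the authors: read counts scaled by 1 factor for each library (from DESeq2 for the gene table, going by its deposited name), called normalized counts here. All values were whole multiples of 1 step per column (tolerance 0.01 reads), from which reads were recovered. The gene table held 28363683 to 32816861 reads per library. For TE copies the range was 1974504 to 3703419. HISAT2 2.1.0, featureCounts 1.5.2, DESeq2 1.26.0, cutadapt 1.18 and builds mm10 and GRCm38 are named per the submitters' processing notes; strand setting and treatment of reads with several matches are not given in the sources used here.

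The test was limma 3.58.1 in R 4.3.3 (two-sided, moderated with a mean-variance trend) on log2(normalized count + 1), for features averaging 10 or more, without covariates, with Benjamini-Hochberg adjustment over the whole table. Fold changes on this scale understate those of low features. Intervals are 95% intervals of the moderated estimate. Single ratios were compared by exact permutation tests. Alternatives were pseudocounts of 0.1 and 10, other filters, no trend, quantile normalization, a replicate block, edgeR 4.0.16 and DESeq2 1.42.0 on recovered reads, and leaving out each library. The main limma fit was tried on simulated gene counts with a fixed dispersion, and the other fits were not.

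The members and lists were chosen with earlier results of these data known. All 9 members were named. From the pathway list and the neighbouring genes, those with an adjusted p under 0.05 were named, or else the 2 with the lowest p in each direction. At each member the TE copy with the lowest p was named. For Mov10l1 and Gtsf1, the 5 genes with the highest r were named. Tdrd5, Mov10, Gtsf1l, Gtsf2, H3f3c, Ankrd55, Gm23737, Gm8702, Mlc1, Panx2, the long Mov10l1 copy, the copy nearest its start and the calls within 50 kb were named outside this rule, after their values were seen. TE positions are as the table gives them. No transcript of another gene matched a member over more than 17.5% of its longest transcript (blastn, at least 100 bases).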

Additional observations from a re-analysis of the deposited data

How the results depend on the processing

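Mov10l1 kept a positive log2 fold change in its 16 alternatives (0.77 to 1.20, adjusted p 0.0397 to 0.729) and Gtsf1 a negative one (-0.82 to -0.52, adjusted p 0.312 to 1.000). The number of the 9 members called was 0 in all alternatives but DESeq2, where it was 1. Signs of members near 0 turned with quantile normalization for Asz1 (-0.0049) and Ddx4 (-0.10), and with single libraries left out for Pld6 (-0.38 to 0.11), Asz1 (-0.077 to 0.15), Fkbp6 (-0.28 to 0.037), Henmt1 (-0.0089 to 0.076) and Ddx4 (-0.21 to 0.21). Per Ddx4 the ratio of KO to het means kept its direction for Mov10l1 and Gtsf1 under the denominators and left-out libraries tried. By longest transcript Mov10l1 was 5 in the order of levels instead of 4. Within 500 kb, 2 of 228 tested genes were called (0.877%, beside 0.473% of all genes), H3f3c and Ankrd55, both lower in KO (0.0423% of all genes). TE copies called at the members numbered 2 of 112 within 50 kb (16.3% of all copies) and 0 to 2 with a library left out.

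Over all genes, 112 were higher and 11 lower in KO. The higher count was 70 with a pseudocount of 0.1, 177 with a pseudocount of 10, 400 with DESeq2, and 17 to 105 with a library left out. The lower count was 5 with a pseudocount of 0.1, 3 without trend, 65 with DESeq2, and 1 to 7 with a library left out. Higher TE copies (7745) numbered 2377 with a mean of at least 50 and 3694 to 9000 with a library left out. The causes of these changes were not tested.

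Deviations of the same-numbered het and KO libraries from their group means had correlations across genes of 0.138, -0.163 and -0.0438. With 3 libraries per group these values cannot decide whether the replicate number pairs libraries, and the labels do not say. With the replicate block, 64 genes were higher and 5 lower in limma, and 38 and 0 in edgeR, with 0 members called in each. The Mov10l1 log2 fold change with the block was 0.95 (limma adjusted p 0.441). The paired exact sign-flip test of the ratio to Ddx4 gave p = 0.25, the smallest it can give, for Mov10l1 and for Gtsf1.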
